A study of Mus musculus with 6 samples.

Results

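The 10 genes described here encode Sox transcription factors of neural progenitors and young neurons. They are *Sox1*, *Sox2* and *Sox3* of the SoxB1 group, *Sox21* of the SoxB2 group, *Sox4*, *Sox11* and *Sox12* of the SoxC group, and *Sox5*, *Sox6* and *Sox13* of the SoxD group. They were taken by symbol from a table of read counts for 54532 mouse genes, each was found there, and all 10 passed the filter on low counts. RNA was measured in bulk in cerebella of mice at postnatal day 1 (P1) with 6 libraries, of which 3 were labelled control and 3 mutant. The controls were littermates with the genotype *Tox3* f/f and no Cre, and the mutants were *Nestin-Cre;Tox3* f/f, so both groups carried the floxed *Tox3* gene and the mutants also carried a Cre transgene that acts across the nervous system. No control carried the transgene, so an effect of Cre and an effect of the deletion cannot be told apart. No source states that the 3 libraries of a group came from separate animals, and the p-values measure the spread between these libraries only.

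The libraries held 15391854 to 17178478 counts each, and 17505 genes were tested. *Tox3* itself had 968 to 1003 counts in the controls and 951 to 970 in the mutants, a log2 fold change of −0.11 (edgeR adjusted p = 0.252). That count covers the whole gene and the deleted exon is not given in the sources used here, so it is no check of the labels, and each direction below compares libraries labelled mutant with libraries labelled control. *Atoh1*, the transcription factor that specifies granule neuron progenitors, had 481 to 501 counts in the controls and 4 to 10 in the mutants. The tissue label was checked with 6 genes of the cerebellar anlage, all of which were detected in every library, whereas 5 genes of the hindbrain outside the cerebellum summed to at most 1.27 CPM (counts scaled to a common, normalized library total) in any library.

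Sox proteins bind DNA through a high mobility group (HMG) box that resembles the one in Sry. The groups follow the similarity of that box in part. SoxB1 factors keep neural progenitors undifferentiated, and in the cerebellum *Sox2* and *Sox1* are also active in Bergmann glia, whereas Sox21 acts as a repressor that opposes SoxB1 factors. SoxC factors activate neuronal genes in cells that have just left the progenitor state. SoxD factors have no transactivation domain of their own, form dimers through a coiled coil, and modify the action of other Sox proteins, for example in oligodendrocyte precursors.

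The first 60 bases that code for the HMG box are shown for each gene, because the Sox groups that order the results follow the box in part. Alike sequence is also where reads could be assigned to the wrong gene. The bases were read from the GENCODE M21 transcripts (GRCm38), run 5′ to 3′ on the coding strand, and are in capitals where a base differs from *Sox2*.
Sox1: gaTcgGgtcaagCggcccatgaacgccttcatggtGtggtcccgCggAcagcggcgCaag
Sox2: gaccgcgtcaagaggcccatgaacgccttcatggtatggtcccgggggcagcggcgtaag
Sox3: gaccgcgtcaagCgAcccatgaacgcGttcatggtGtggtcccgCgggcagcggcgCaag
Sox21: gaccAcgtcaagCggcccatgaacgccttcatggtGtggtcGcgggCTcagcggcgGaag
Sox4: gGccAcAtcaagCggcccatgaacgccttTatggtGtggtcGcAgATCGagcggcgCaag
Sox11: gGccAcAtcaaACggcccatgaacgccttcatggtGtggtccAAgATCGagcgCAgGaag
Sox12: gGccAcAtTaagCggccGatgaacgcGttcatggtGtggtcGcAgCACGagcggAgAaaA
Sox5: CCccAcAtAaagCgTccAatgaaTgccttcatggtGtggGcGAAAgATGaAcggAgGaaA
Sox6: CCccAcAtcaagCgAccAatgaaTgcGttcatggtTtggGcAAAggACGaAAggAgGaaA
Sox13: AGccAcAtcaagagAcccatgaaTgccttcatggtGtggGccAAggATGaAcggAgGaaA

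Over these 60 bases, *Sox1*, *Sox3* and *Sox21* differed from *Sox2* at 7, 6 and 7 positions, the SoxC genes at 13 to 17 and the SoxD genes at 17 to 22. Over the whole stretch of 79 codons taken as the box, base identity to *Sox2* was 89.5% for *Sox1*, 87.8% for *Sox3* and for *Sox21*, 67.5% to 68.8% for the SoxC genes and 57.8% to 62.0% for the SoxD genes. Within the SoxC group, *Sox4* and *Sox11* were 89.5% identical, and within the SoxD group *Sox5* and *Sox13* were 84.8% identical. In amino acids of the box, Sox21 was 92.4% identical to Sox2 and Sox3 was 91.1% identical to it. The box alone therefore did not part SoxB2 from SoxB1. The longest run of bases shared by the transcripts of any pair of the 10 genes was 48, between *Sox4* and *Sox11*, which is shorter than a sequenced read. How the study's counting treated reads that map to several places is not given in the sources used here.

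Levels of different genes were compared as fragments scaled by gene length and library depth (FPKM), the scale the authors deposited beside the counts. In the controls the order was *Sox12* (59.5 ± 1.19 FPKM, SD, n = 3), *Sox4* (47.1 ± 1.30), *Sox2* (45.0 ± 3.93), *Sox11* (42.4 ± 0.976) and *Sox1* (19.8 ± 0.582), followed by *Sox3* (6.44 ± 0.212), *Sox13* (5.65 ± 0.196), *Sox21* (5.20 ± 0.651), *Sox6* (3.50 ± 0.300) and *Sox5* (2.71 ± 0.206). The ranges of *Sox4* and *Sox2*, of *Sox2* and *Sox11*, and of *Sox13* and *Sox21* overlapped among the control libraries, and all other neighbours in this order were apart. In the mutants *Sox2* was the first of the 10, at 71.0 ± 3.31 FPKM, with no overlap with the second, *Sox4* at 52.6 ± 1.63. *Sox12* came next at 52.2 ± 1.27 and its range overlapped that of *Sox4*, and the order from *Sox11* downward was that of the controls. The lengths behind these values are those of all exons of a gene joined, 14376 bases for *Sox5* and 14832 for *Sox6* with their many transcripts against 2057 for the single exon of *Sox2*, so a level of *Sox5* or *Sox6* is set by that choice of length as well.

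**Figure D1:**
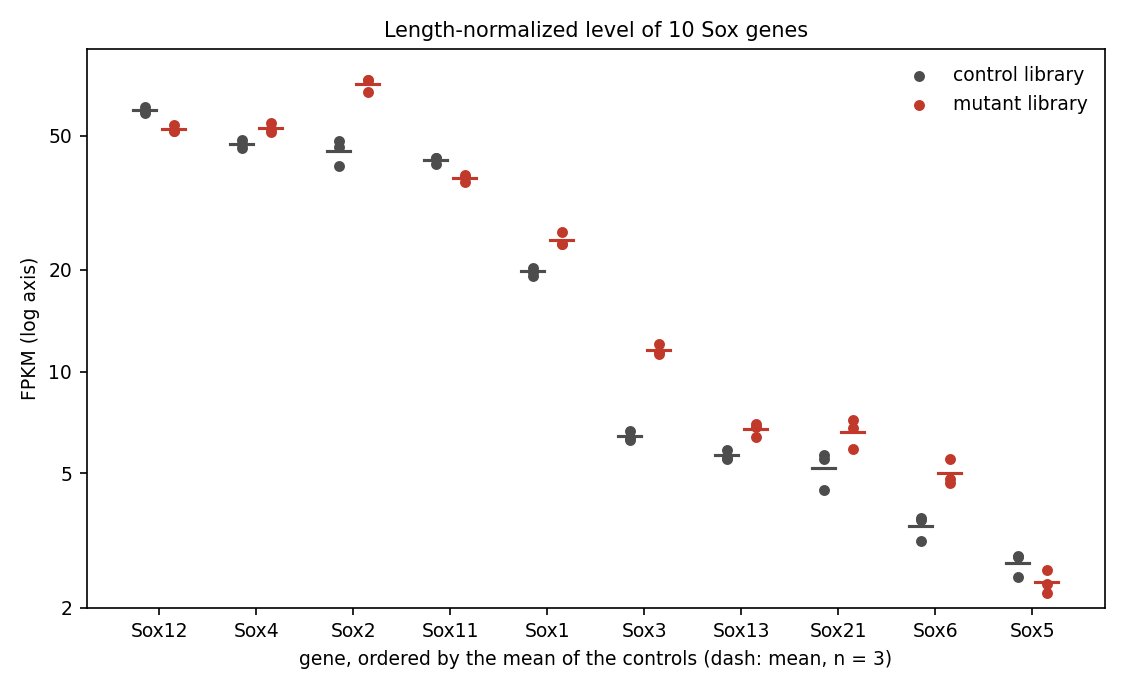
FPKM (vertical, log axis) of the 10 Sox genes in each of 3 control and 3 mutant libraries (points), with the mean of each group as a dash, ordered by the control mean. *Sox12* is the highest in the controls at 59.5 and *Sox2* in the mutants at 71.0, while *Sox5* is the lowest in both groups.

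Summed per group, the SoxB1 genes made up 30.0% ± 0.816 of the FPKM of all 10 genes in the controls and 39.7% ± 0.604 in the mutants (SD, n = 3), and the SoxC genes 62.8% ± 0.766 and 52.6% ± 0.449. The SoxB1 sum lay at 66.7 to 74.8 FPKM in the controls and 104 to 109 FPKM in the mutants. The SoxC sum lay at 145 to 151 FPKM in the controls and 141 to 144 FPKM in the mutants. The sums of both groups did not overlap between controls and mutants, and the shift in shares came mainly with the higher SoxB1 sum. These sums are descriptions and were not tested.

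All genes were tested by the quasi-likelihood method of edgeR, with p-values adjusted by Benjamini and Hochberg's procedure, and a gene was called lower or higher where the adjusted p was under 0.01 and the log2 fold change lay beyond 0.5. Of the 10 Sox genes, 3 were called higher, *Sox2*, *Sox3* and *Sox6*, where 3.03% of all tested genes were called higher. None was called lower by edgeR or by DESeq2, where 3.63% of all tested genes were, and 2 had a lower level at an unadjusted p under 0.05. By the adjusted p alone, 4 were higher and 1 was lower, against 6.55% and 7.24% of all tested genes. The libraries of the groups did not overlap for 9 of the 10 genes, 7 higher and 2 lower in the mutants, which was the case for 40.5% of all tested genes. The median log2 fold change of the 10 genes was 0.28 and that of all tested genes −0.01. In bulk tissue, fewer cells of a type and less RNA per cell cannot be told apart, and the same holds for more. CPM, FPKM and the fold changes are relative to the library total. A higher value is thus a higher share of the RNA, and absolute amounts were not measured.

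**Figure D2:**
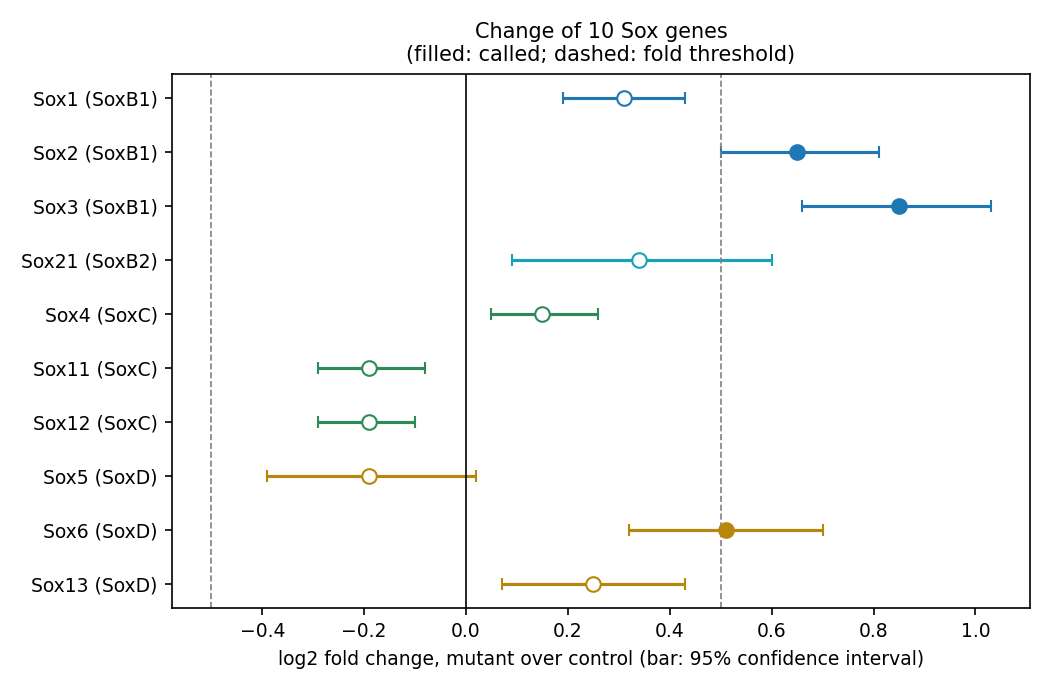
Log2 fold change of mutant over control (horizontal) with its 95% confidence interval for the 10 Sox genes, coloured by Sox group. Filled points are called, dashed lines mark the fold threshold of 0.5, and of the 10 intervals that of *Sox5* alone includes 0.

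All 3 SoxB1 genes were higher in the mutants, and *Sox2* and *Sox3* rose past both thresholds. *Sox2* (ENSMUSG00000074637, chr3:34650405-34652461, plus strand, GRCm38) is the factor most widely used to mark neural stem and progenitor cells, and the printed bases lie in its only exon at chr3:34650536-34650595. Its level was 96.1, 84.3 and 100 CPM in the control libraries 1, 2 and 3 and 151, 151 and 139 CPM in the mutant libraries. Every mutant library was above every control, and the lowest control was control 2. The log2 fold change was 0.65 (standard error [SE] 0.07, 95% confidence interval [CI] 0.50 to 0.81, edgeR adjusted p = 0.000182), that is 1.57-fold.

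*Sox3* (ENSMUSG00000045179, chrX:60891366-60893430, minus strand), an X-linked SoxB1 gene with a further role in the hypothalamus and pituitary, showed the greatest change of the 10. The printed bases lie in its only exon at chrX:60892948-60893007. Its level was 13.9, 13.2 and 13.1 CPM in the controls and 25.0, 23.9 and 23.4 CPM in the mutants, with little spread inside either group. The log2 fold change was 0.85 (SE 0.08, 95% CI 0.66 to 1.03, edgeR adjusted p = 0.000117), or 1.8-fold. Because the gene lies on chromosome X, the summed level of Y-chromosome genes was added as a covariate for sex, and the log2 fold change was then 0.83.

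*Sox1* (ENSMUSG00000096014, chr8:12395295-12400126, plus strand), one of the earliest markers of neural fate, was higher by less. The printed bases lie in its only exon at chr8:12396505-12396564. Its level was 93.5, 96.2 and 99.1 CPM in the controls and 116, 117 and 125 CPM in the mutants, again without overlap. The log2 fold change of 0.31 (SE 0.05, 95% CI 0.19 to 0.43) had an edgeR adjusted p of 0.00240 and did not reach the fold threshold.

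*Sox21* (ENSMUSG00000061517, chr14:118233232-118237030, minus strand), the SoxB2 repressor that promotes neuronal differentiation against SoxB1 factors, did not pass the threshold on the adjusted p. The printed bases lie in its only exon at chr14:118235561-118235620. Its level was 21.1, 17.1 and 21.6 CPM in the controls and 25.9, 22.7 and 27.3 CPM in the mutants. The groups did not overlap, but the highest control lay close to the lowest mutant, and library 2 was the lowest in each group. The log2 fold change was 0.34 (SE 0.11, 95% CI 0.09 to 0.60, edgeR adjusted p = 0.0494), an interval that holds values both near 0 and past the fold threshold.

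No SoxC gene was called, and their directions differed. *Sox4* (ENSMUSG00000076431, chr13:28948919-28953713, minus strand), which is active in young neurons and also in progenitors, stood at 234, 221 and 228 CPM in the controls and 246, 264 and 250 CPM in the mutants. Its log2 fold change was 0.15 (SE 0.05, 95% CI 0.05 to 0.26, edgeR adjusted p = 0.0353), so the gene did not pass either threshold although the libraries did not overlap. The printed bases lie in its only exon at chr13:28952794-28952853.

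*Sox11* (ENSMUSG00000063632, chr12:27334264-27342574, minus strand), a driver of neurite growth and pan-neuronal genes, had the highest CPM of the 10 genes but is also the longest of the single-exon genes. Its level was 361, 346 and 359 CPM in the controls and 302, 317 and 318 CPM in the mutants. All mutant libraries were below all controls, and the log2 fold change was −0.19 (SE 0.05, 95% CI −0.29 to −0.08, edgeR adjusted p = 0.0139). The printed bases lie in its only exon at chr12:27342211-27342270.

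*Sox12* (ENSMUSG00000051817, chr2:152393611-152398063, minus strand), the SoxC gene with the weakest known transactivation, stood at 266, 262 and 273 CPM in the controls and 239, 232 and 230 CPM in the mutants. It was the one member lower at an adjusted p under 0.01, at 0.00832 in edgeR, with a log2 fold change of −0.19 (SE 0.04, 95% CI −0.29 to −0.10). That interval, like those of *Sox4* and *Sox11*, lies inside the fold threshold on both sides, so a change of the called size was outside the 95% CI of each SoxC gene. The printed bases of *Sox12* lie in a coding exon at chr2:152397528-152397587.

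Of the SoxD genes, *Sox6* rose and *Sox5* and *Sox13* were not called. *Sox6* (ENSMUSG00000051910, chr7:115470872-116038796, minus strand), which holds oligodendrocyte precursors in an immature state and is required in cortical interneurons, stood at 47.2, 55.2 and 54.6 CPM in the controls and 71.5, 82.8 and 69.4 CPM in the mutants. The groups were apart, with control 1 the lowest and mutant 2 the highest library. The log2 fold change was 0.51 (SE 0.09, 95% CI 0.32 to 0.70, edgeR adjusted p = 0.00223), just past the fold threshold. Without control 1 or without mutant 2 it was 0.44 and the gene was no longer called.

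*Sox5* (ENSMUSG00000041540, chr6:143828425-144781977, minus strand), the closest relative of *Sox6* in function and a regulator of deep-layer cortical neurons, stood at 41.2, 40.8 and 35.8 CPM in the controls and 34.0, 37.6 and 32.0 CPM in the mutants. It was the only member whose groups overlapped, with a log2 fold change of −0.19 (SE 0.09, 95% CI −0.39 to 0.02, edgeR adjusted p = 0.165). *Sox13* (ENSMUSG00000070643, chr1:133382303-133424377, minus strand), known for its role in T cells and as a partner of TCF factors, stood at 25.6, 24.2 and 24.0 CPM in the controls and 27.7, 30.4 and 29.7 CPM in the mutants. Its log2 fold change was 0.25 (SE 0.08, 95% CI 0.07 to 0.43, edgeR adjusted p = 0.0428). The printed bases of these 3 genes each lie in a single coding exon, at chr6:143841226-143841285 for *Sox5*, chr7:115489715-115489774 for *Sox6* and chr1:133385518-133385577 for *Sox13*.

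**Figure D3:**
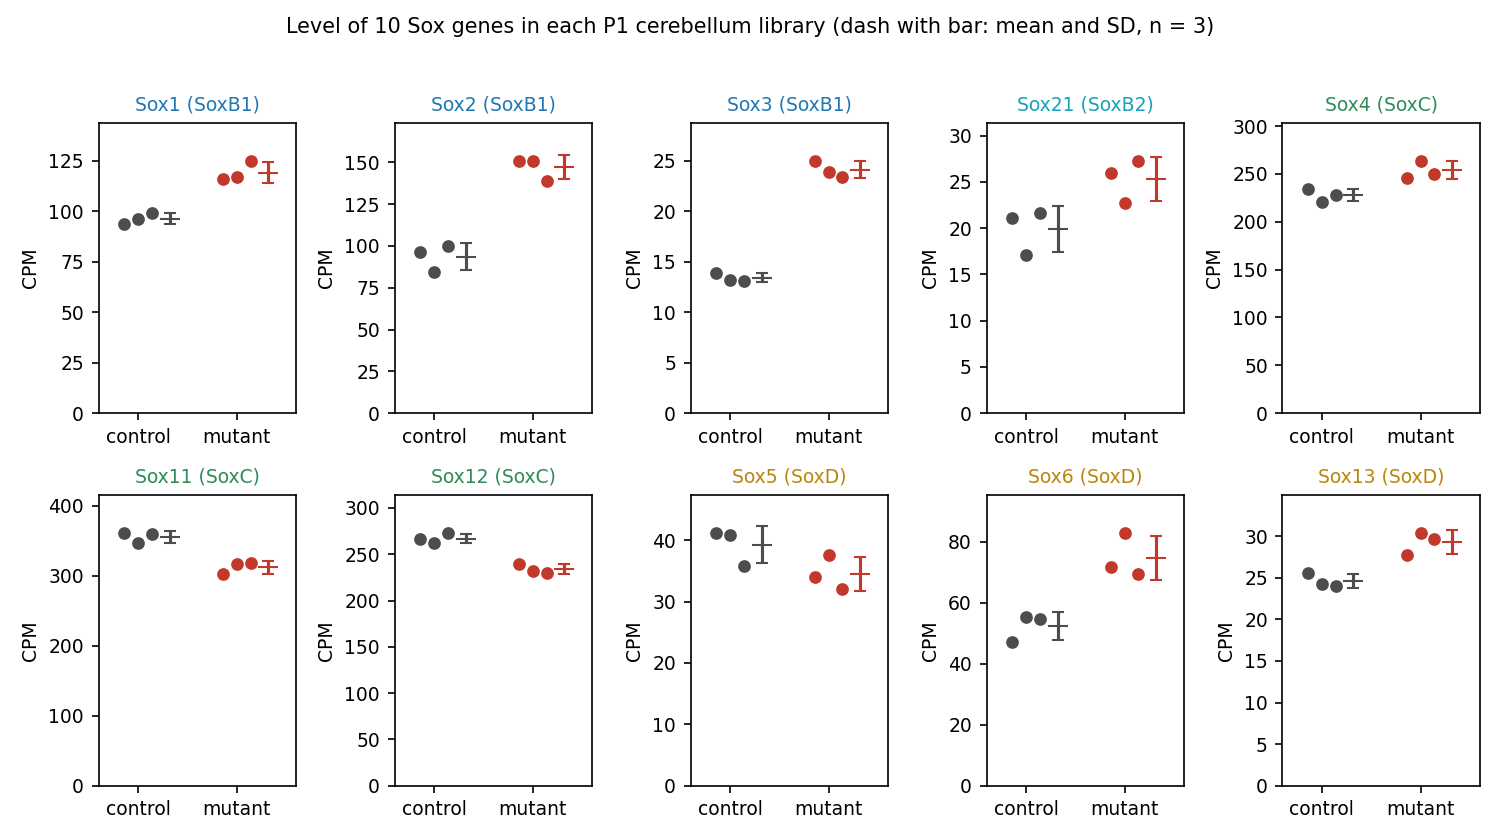
CPM (vertical, from 0) of each of the 10 Sox genes in the 3 control and 3 mutant libraries (points), with the mean and SD beside them (n = 3). The groups are apart for 9 genes and overlap for *Sox5*, and as a ratio the separation is widest for *Sox3* (13.4 against 24.1 CPM on average) and *Sox2* (93.5 against 147 CPM).

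The balance between genes of the same Sox group was compared as the log2 ratio of their counts within each library, which does not depend on the scaling between libraries. Of 9 such pairs, 8 did not overlap between controls and mutants. Pairs of a group share genes, and 9 of the 10 genes did not overlap singly, against 40.5% of all tested genes. The count of pairs is therefore not separate from those of single genes, and the share among other gene pairs was not computed. Each of the 8 pairs had an exact two-sided permutation p of 0.1, the smallest that 3 against 3 libraries can give (0.113 after Benjamini-Hochberg adjustment over the 9 pairs). This test therefore cannot place any of these differences past 0.05. In the SoxB1 group, *Sox1* lost ground to both other genes: the log2 ratio of *Sox1* to *Sox3* was 2.75, 2.86 and 2.92 in the controls and 2.21, 2.29 and 2.42 in the mutants. The ratio of *Sox2* to *Sox3* came to 2.67 in both control 2 and mutant 2 after rounding, so this pair was separated by less than the rounding.

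In the SoxC group, the ratio of *Sox4* to *Sox11* was −0.63, −0.64 and −0.65 in the controls and −0.29, −0.27 and −0.34 in the mutants, and the ratio of *Sox4* to *Sox12* was higher by 0.35 on average. *Sox11* and *Sox12* kept their ratio within 0.01 on average, with overlapping libraries and an exact permutation p of 0.9. The widest shift of any pair was that of *Sox5* to *Sox6*, from −0.20, −0.44 and −0.61 in the controls to −1.07, −1.14 and −1.12 in the mutants. *Sox5* was thus lower relative to *Sox6* in every mutant library than in any control, by 0.70 on average on the log2 scale.

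**Figure D4:**
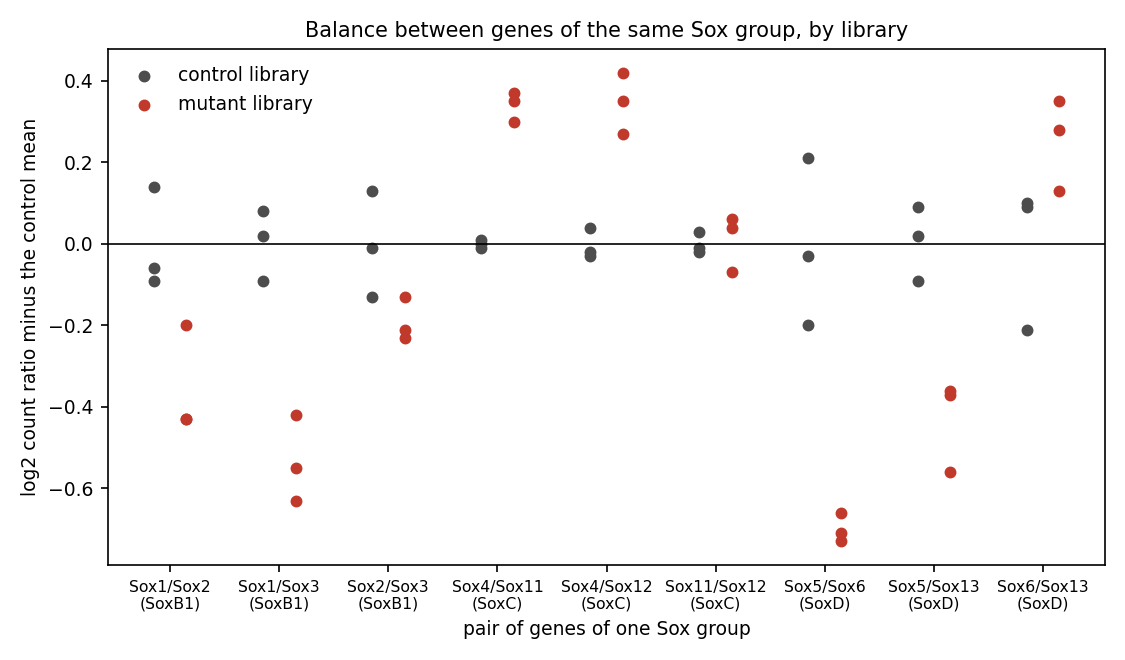
Log2 ratio of the counts of 2 genes of the same Sox group in each library (points), minus the mean of the 3 controls, for 9 pairs. The libraries overlap for *Sox11* to *Sox12* and are apart for the other 8 pairs, with the widest distance for *Sox5* to *Sox6*.

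Several of the 10 genes overlap other genes on the genome, and whether reads were counted by strand is not given in the sources used here. *Sox2* lies inside *Sox2ot*, a long noncoding transcript on the same strand with which it shares no exon base in GENCODE M21. *Sox2ot* had 111, 123 and 108 counts in the controls and 215, 175 and 209 in the mutants, and it was called higher as well, with a log2 fold change of 0.73 (SE 0.12, edgeR adjusted p = 0.00181). *Sox1ot*, placed around *Sox1* in the same manner, had 655, 693 and 610 counts in the controls and 593, 456 and 606 in the mutants, a log2 fold change of −0.32 (edgeR adjusted p = 0.0408), opposite in sign to *Sox1*. *Gm4675* shares 713 exon bases with *Sox21* on the opposite strand and had 16 to 30 counts in any library against at least 262 for *Sox21*. *Gm26735*, opposite to *Sox4* over 2616 exon bases, and *Sox5os1*, opposite to *Sox5* over 1330, had at most 2 counts in any library.

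Genes known to act with the SoxB factors did not move with them as a list. Of 7 such partners, 2 fell and none rose, with a median log2 fold change of −0.09. The 2 were *Pax6*, the paired box factor of granule neuron progenitors and a DNA-binding partner of Sox2 (−0.99, edgeR adjusted p = 8.27e-06), and *Chd7*, a chromatin remodeller that binds Sox2 in neural stem cells (−0.82, edgeR adjusted p = 1.75e-05). The 4 class III POU factors, *Pou3f2* among them at −0.11, were not called. Of 9 genes of neural progenitors, none was called by edgeR or DESeq2, although 3 were higher at an adjusted p under 0.01 and 6 at an unadjusted p under 0.05. These 3 were *Vim* (0.47), *Nes* (0.49) and *Notch1* (0.36), which encode intermediate filaments of radial glia and the Notch receptor, and the list's median was 0.32. *Nes* sat at the fold threshold and was called in 4 of 15 alternative fits. The list's count called higher was 1 with library size alone and without control 1, control 3, mutant 1 or mutant 2. Those calls were not all of *Nes*.

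Genes activated by SoxC factors included 2 that fell, of 4 listed. *Neurod1*, a basic helix-loop-helix factor of granule neurons, fell from 293 ± 8.37 to 131 ± 4.39 CPM (SD, n = 3), and *Tead2*, a Hippo pathway factor, from 131 ± 3.55 to 82.5 ± 2.55 CPM. *Tubb3* and *Dcx*, the cytoskeletal genes of young neurons, were not called, with log2 fold changes of 0.12 and −0.33. Over 17 genes of young neurons, 5 fell and none rose by edgeR or DESeq2, while by the adjusted p alone 7 were lower and 2 higher. *Nhlh1* (−1.78), *Neurod1* (−1.16) and *Rbfox3* (−0.73) had the smallest p, and the median was −0.21.

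Among 8 genes of the oligodendrocyte lineage, in which SoxD factors act, 5 rose with a median log2 fold change of 0.68. They included *Mbp* (0.69), which encodes a myelin protein, and *Olig1* (0.71), a transcription factor of the lineage. *Pdgfra*, the receptor that marks oligodendrocyte precursors, was lower by the adjusted p alone, at −0.45. Of 7 cartilage genes that SoxD factors control together with Sox9, 5 were tested and none was called by edgeR or DESeq2, with 2 higher and 1 lower at an unadjusted p under 0.05, and 1 was called higher without control 3.

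**Figure D5:**
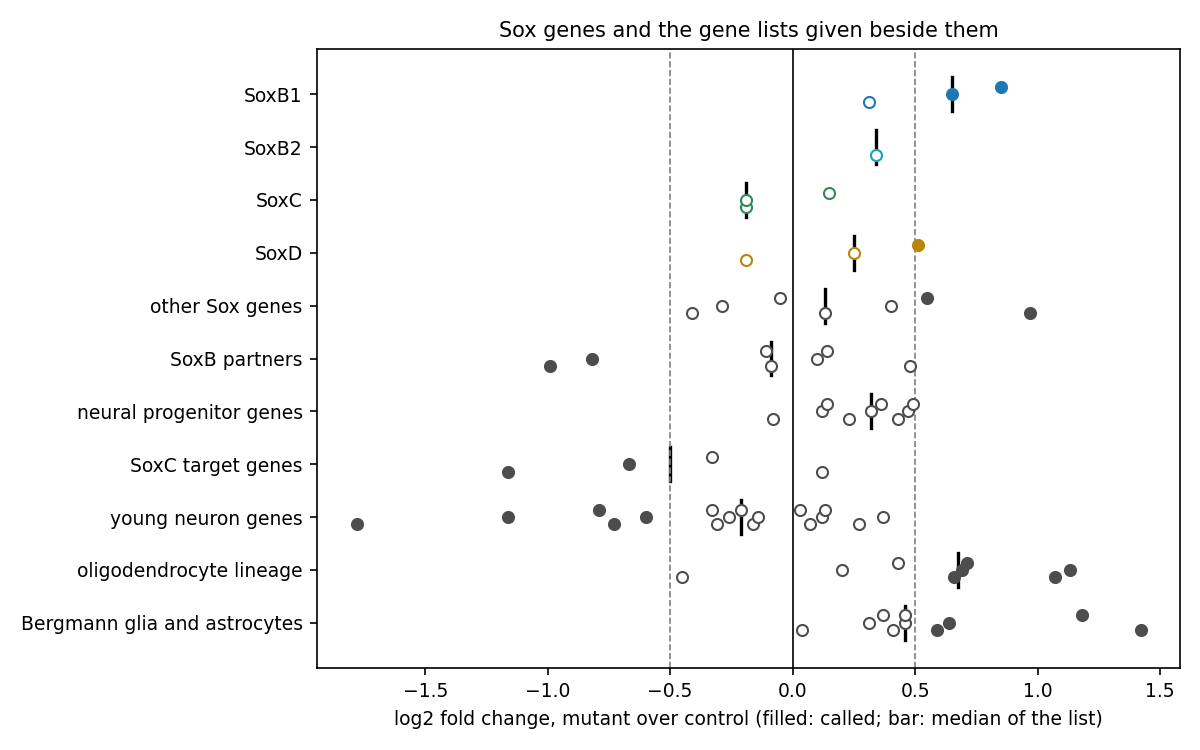
Log2 fold change of mutant over control (horizontal) for each tested gene (points) of the 4 Sox groups, the other Sox genes and 6 gene lists. Filled points are called, black bars are the medians of the lists and dashed lines mark the fold threshold of 0.5. The SoxB1 genes and the oligodendrocyte and Bergmann glia lists lie to the right of 0 for the most part and the SoxC targets to the left.

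The mouse table held 10 further Sox genes, of which 7 were tested, 2 rose and none fell. *Sox10*, the factor of oligodendrocytes and neural crest derivatives, had 309, 318 and 325 counts in the controls and 674, 594 and 689 in the mutants, a log2 fold change of 0.97 (SE 0.08, edgeR adjusted p = 3.78e-05). *Sox8*, its SoxE relative, changed by 0.55 on the log2 scale (SE 0.07, edgeR adjusted p = 0.000567), and 0.49, no longer called, without mutant 3. *Sox9*, the SoxE gene of Bergmann glia and astrocytes, was at −0.05 (edgeR adjusted p = 0.594) with overlapping libraries. The SoxF genes of endothelium, *Sox7*, *Sox17* and *Sox18*, were not called, and *Sox14*, the other SoxB2 gene, was at 0.40 (SE 0.22, edgeR adjusted p = 0.224). *Sry* had no count in any library, and *Sox15* and *Sox30* had at most 3 and 15.

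Markers of cerebellar cell types and of proliferation differed between the same libraries. Which cell types hold the 10 Sox genes was not measured in this bulk RNA. All 7 genes of granule neuron progenitors fell, with a median log2 fold change of −1.09 and a summed level of 1040 to 1120 CPM in the controls and 415 to 447 CPM in the mutants. Of 6 proliferation genes 5 fell, and by the adjusted p alone all 6 were lower, with sums of 1100 to 1250 CPM and 611 to 719 CPM. Of 10 genes of Bergmann glia and astrocytes, in which *Sox1* and *Sox2* are active, 4 rose and none fell. By the adjusted p alone 7 of the 10 were higher. The list had a median of 0.46 and sums of 4080 to 4220 CPM and 5700 to 5990 CPM. The oligodendrocyte list summed to 523 to 566 CPM and 693 to 751 CPM. The Purkinje cell list, with 5 of 8 genes called higher and 1 lower by the adjusted p alone, summed to 1670 to 1800 CPM and 2230 to 2710 CPM. The list of GABAergic progenitors and interneurons had 2 of 6 genes called higher and 1 called lower, and 4 higher and 1 lower by the adjusted p alone. It summed to 403 to 421 CPM and 561 to 586 CPM. In the last list, the count called lower was 0 without control 1, 2 or 3 or mutant 1 or 3, and the count called higher was 1 without mutant 3. No gene of these 6 lists was at or under 3 counts in every library. The part of these cell types in the values of *Sox2*, *Sox3* and *Sox6* was not tested.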

How the data were processed

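Bulk poly-A RNA of P1 cerebella was measured in 3 control and 3 mutant libraries, grouped by their labels. The authors deposited raw counts per gene, made with featureCounts 1.5.0-p3 from quality-filtered read pairs placed on mm10 by HISAT2 2.0.5. They also deposited FPKM values computed from those counts and gene length. The annotation release is not given in the sources used here, but 53585 of 54532 genes have the same span in GENCODE M21, the 10 Sox genes among them.

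Counts were tested with edgeR 4.0.16 under R 4.3.3 (low counts filtered by filterByExpr, TMM, glmQLFit, glmQLFTest), and CPM values are relative to TMM-normalized totals. The tested genes held 99.8% of the counts, the common dispersion was 0.0105, and 3 counts correspond to at most 0.196 CPM. Same-group libraries differed by a chi-square per gene of 3.64 to 10.1, more than sampling noise gives, and none was treated as a copy. The thresholds are those of the study's methods, which used DESeq2. Alternatives were DESeq2 1.42.0, its size factors or library size alone, other filters, a replicate block, a Y-chromosome covariate, limma 3.58.1 on FPKM values in log2 with 1 or 0.1 added, for genes of at least 0.1 FPKM in 3 libraries, other thresholds, and leaving out each library. The fits were tested on simulated counts.

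The genes named were the 10 members, the other Sox genes, *Tox3*, *Atoh1*, genes overlapping a member, and for each list up to 3 genes with the smallest p. A gene that this rule also names is not reported here. Genes named beyond these (*Tubb3*, *Pdgfra* and *Pou3f2*) were chosen after their values were seen. The members and lists were chosen with earlier results of these data known. Leaving out libraries for the list counts was added after seeing the data.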

Additional observations from a re-analysis of the deposited data

How the results depend on the processing

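All 150 log2 fold changes of the 10 Sox genes, from 15 alternative fits each, kept their sign, and 146 kept their call. The other 4 were those of *Sox6*, which was not called at 0.50 with limma on log2(FPKM + 0.1), at 0.42 on log2(FPKM + 1), and at 0.44 without control 1 and without mutant 2. The count of members called higher was 2 to 3 when a library was left out. It was 0 with edgeR's test against the fold threshold itself (glmTreat), a stricter question than the one asked by the thresholds, and the count called lower was 1 (*Sox12*) with no fold threshold. *Sox2* stayed between 0.58 and 0.70 and *Sox3* between 0.76 and 0.87. With the replicate number as a block (replicate block), 3 members were called higher and 0 lower, as without it. Same-numbered libraries deviated together for numbers 1 and 2 (r = 0.291 and 0.327) but not for 3 (r = −0.168), so the numbers were not taken to pair the libraries. Of 440 counts of called genes in the lists, 415 stayed within 1.5 times, and the cause of the other 25 was not tested. The fewest counts of any member were those of *Sox3*, at 203 to 214 in the controls.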

Other observations

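Lists of other cell types that a P1 cerebellar dissection can hold were read in the same fit. Of 5 meningeal genes 2 rose, *Col1a1* (0.85) and *Igf2* (0.82), with summed levels of 510 to 536 CPM in the controls and 570 to 692 CPM in the mutants. Of 5 microglial genes 1 rose, *C1qa* (0.59), and 2 were higher by the adjusted p alone, with sums of 91.1 to 94.3 CPM and 113 to 127 CPM. None was called without control 1, control 2, mutant 1 or mutant 3. None of 6 endothelial, 5 erythrocyte, 4 choroid plexus, 3 Schwann cell and 2 unipolar brush cell genes tested was called by edgeR or DESeq2, and at an unadjusted p under 0.05 these lists held 1, 0, 2, 2 and 1 genes in that order. With no filter on low counts, edgeR called 2 choroid plexus genes and 1 Schwann cell gene higher. Without mutant 2, 2 choroid plexus genes were called higher and 1 erythrocyte gene lower, and 1 Schwann cell gene was called higher without control 1 or mutant 3. The choroid plexus sum ran from 73.7 to 140 CPM in the controls and from 11.3 to 742 CPM in the mutants, so the libraries labelled mutant spread far more for these genes than for any of the 10 Sox genes. Of 6 cerebellar identity genes 2 fell past both thresholds, *Pax6* and *En1* (−1.54). By the adjusted p alone all 6 were lower, and the list's median log2 fold change was −0.37. *Otx2*, listed as a midbrain gene but also expressed in cerebellar granule progenitors, fell by 1.16 on the log2 scale.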
